A study of Homo sapiens with 6 samples.

Results

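The genes described here are LARP6 and the other members of the human La-related protein family, LARP1, LARP1B, LARP4, LARP4B, LARP7 and SSB. They were taken by symbol from the deposited count table, in which all 7 symbols were found once among 28675 genes. The libraries came from MDA-MB-231, a cell line derived from a triple-negative breast cancer, which lacks estrogen receptor, progesterone receptor and HER2. Per the labels, 3 libraries were from cells overexpressing LARP6 and 3 from cells with a no-load control. The sources used here do not give the form, promoter or delivery of the introduced LARP6 copy. Nor is it stated whether replicate libraries were grown as separate cultures, so the p-values speak only for the variation among these 6 libraries, part or all of which may be technical. The series was set up to find the RNAs that LARP6 binds and regulates in these cells.

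Proteins of this family share a La motif, an RNA-binding fold that is usually followed by an RNA recognition motif, and each has taken on its own class of RNA. SSB, the La protein itself, holds the uridine-rich 3′ ends of new RNA polymerase III transcripts and protects them from exonucleases. LARP7 does this for 7SK, whose particle keeps the elongation kinase P-TEFb inactive. LARP1 binds the cap and the pyrimidine tract at the start of TOP mRNAs, which encode ribosomal proteins and translation factors, and it is controlled by the kinase complex mTORC1. LARP4 and LARP4B bind mRNA and the poly(A)-binding protein, and LARP4 protects poly(A) tails. LARP6 is best known for binding a stem-loop in type I collagen mRNAs.

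LARP6 was the only family member whose mRNA changed by the test, and it stood far above every other member in LARP6 libraries, against the middle of the family in control libraries. By edgeR's quasi-likelihood test with Benjamini-Hochberg adjustment over all genes, 1 of the 7 members passed an adjusted p below 0.05, against 6.03% of the 16226 genes tested, 2.43% higher and 3.60% lower. The background share depends on single libraries, with 979 genes called over all 6 libraries, 459 once LARP6 library 1 was dropped, 456 once LARP6 library 2 was dropped and 650 once control library 2 was dropped. The 979 calls were 395 higher and 584 lower, and scaling by library size only gave 687 higher and 303 lower. Library totals ran from 29409101 to 31648120 counts in LARP6 libraries and from 29723790 to 33387050 in control libraries. Replicates differed by a coefficient of variation of 3.23% beyond counting error (edgeR's common dispersion).

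LARP6 (ENSG00000166173.11) lies on the minus strand of chromosome 15, from 70829130 to 70854159 in GENCODE release 29 on GRCh38. It had 59539, 66885 and 67602 reads in LARP6 libraries 1, 2 and 3, against 1347, 1200 and 1422 reads in control libraries 1, 2 and 3. Every LARP6 library was far above every control library, so each library matched its label. The edgeR fold was 49.3 with a 95% interval of 47.0 to 51.7 (log2 fold change 5.62 ± 0.04, SE, adjusted p = 4.73e-94). No tested gene had a larger log2 fold change, and the next largest among called genes with a mean of at least 5 CPM (depth-normalised read counts) was 0.85. LARP6 replicates varied by 4.93% in LARP6 libraries and 4.32% in control libraries (coefficient of variation of CPM).

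Levels were compared between genes in the authors' FPKM, which are counts scaled by gene length and sequencing depth. LARP6 was at 319, 353 and 342 FPKM in LARP6 libraries 1, 2 and 3, against 7.0, 6.4 and 6.8 FPKM in control libraries 1, 2 and 3. Among 16346 protein-coding genes in the FPKM table, its mean ranked 86th in LARP6 libraries and 4887th in control libraries. It supplied 84.3% ± 0.77 of the family's summed FPKM in LARP6 libraries and 9.69% ± 0.50 in control libraries (SD, n = 3 each). LARP6 FPKM was 14.2 ± 0.97 times that of LARP1 in LARP6 libraries and 0.278 ± 0.013 times in control libraries (SD, n = 3 each). The other 6 members together summed to 63.0 ± 0.60 FPKM in LARP6 libraries and 62.8 ± 2.93 FPKM in control libraries (SD, n = 3 each). With summed counts as depth, counts and FPKM of LARP6 corresponded to 6292 bases in LARP6 libraries and 6287 bases in control libraries. This match was fixed by how FPKM are computed and says nothing about the introduced copy. These values may differ from the gene length the authors used, which is not given. The GENCODE exons of LARP6 together cover 5554 bases. Its longest coding sequence in GENCODE is 1473 bases. The transcript length of the introduced copy is not given, so FPKM measure that copy per length of the annotated gene, which may differ from its own. The rank, share and ratio to LARP1 in LARP6 libraries rest on that annotated length. Reads of the introduced copy and of the cell's own gene were not separated in these gene-level values.

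**Figure D1:**
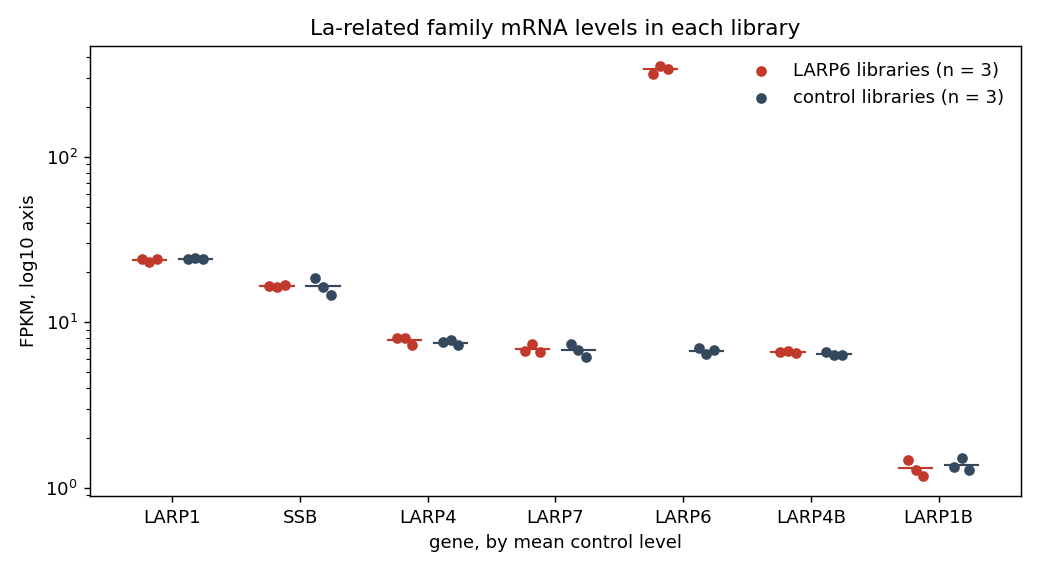
FPKM (log10 axis) of each family member in each library, LARP6 libraries left of control libraries, with a line at each mean. LARP6 sits between 319 and 353 FPKM in LARP6 libraries and between 6.4 and 7.0 FPKM in control libraries, while the other members lie at like heights in both groups.

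In control cells LARP1 and SSB were the most abundant family mRNAs, and LARP1B the least. LARP1 led at 24.3 ± 0.10 FPKM, followed by SSB at 16.5 ± 1.89 FPKM (SD, n = 3 each). LARP4 at 7.53 ± 0.26, LARP7 at 6.77 ± 0.63, LARP6 at 6.73 ± 0.31 and LARP4B at 6.43 ± 0.18 FPKM formed a group whose neighbours in the order overlapped between libraries (SD, n = 3 each). LARP1B stood apart at 1.37 ± 0.12 FPKM (SD, n = 3). Without LARP6, the order was the same in LARP6 libraries, where LARP4 and LARP7 overlapped and LARP7 and LARP4B overlapped. Of the paralog pairs, LARP1 was 18.3 ± 1.93 times LARP1B in LARP6 libraries and 17.8 ± 1.5 times in control libraries (ratio of FPKM, SD, n = 3 each). LARP4 was 1.18 ± 0.05 times LARP4B in LARP6 libraries and 1.17 ± 0.05 times in control libraries (ratio of FPKM, SD, n = 3 each).

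None of the 6 other members was called by edgeR, and the count was also 0 of 6 at an unadjusted p below 0.05 and with limma-voom. DESeq2 called 0 as well, but it gave LARP1B no adjusted p and so could not call that gene. This does not show that they were the same, so the 95% interval of each change is given. The widest intervals, those of LARP1B and SSB, lay between -16.2% and 11.5%, so the largest change that any of the 6 intervals allowed was 1.19-fold.

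LARP1, the TOP mRNA regulator on chromosome 5 (154712902 to 154817607, plus strand), had the narrowest spread in controls. Its level was 237, 228 and 236 CPM in LARP6 libraries 1, 2 and 3, against 241, 244 and 242 CPM in control libraries 1, 2 and 3. All LARP6 libraries were below all control libraries, as were those of 11.7% of the genes tested. The change of -3.63% had a 95% interval of -7.31% to 0.19% and was not called (edgeR adjusted p = 0.297). LARP1B, its paralog on chromosome 4 (128061268 to 128222931, plus strand), was the least abundant member at 15.6, 13.6 and 12.5 CPM in LARP6 libraries 1, 2 and 3. Its control libraries were at 14.3, 16.4 and 13.8 CPM, so the groups overlapped. The difference was -6.30% (95% interval -16.2% to 4.78%, edgeR adjusted p = 0.583), on 398 to 466 reads in LARP6 libraries and 437 to 484 in control libraries.

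LARP4 and LARP4B, which act on mRNA stability and translation, lie on chromosome 12 (50392383 to 50480004, plus strand) and chromosome 10 (806914 to 931705, minus strand). LARP4 was at 73.2, 73.4 and 66.2 CPM in LARP6 libraries 1, 2 and 3, against 70.0, 72.1 and 67.5 CPM in control libraries 1, 2 and 3. LARP4B was at 86.3, 87.6 and 84.6 CPM in LARP6 libraries 1, 2 and 3, against 87.6, 84.1 and 84.3 CPM in control libraries 1, 2 and 3. The groups overlapped for both genes. The change was 1.51% for LARP4 (95% interval -3.99% to 7.32%, edgeR adjusted p = 0.834). For LARP4B it was 0.93% (95% interval -4.08% to 6.20%, edgeR adjusted p = 0.893).

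LARP7 and SSB, the members that bind RNA polymerase III transcripts, had means within 1% of each other between groups but a wider spread in the controls. LARP7, on chromosome 4 (112636964 to 112657592, plus strand), was at 30.3, 33.2 and 29.5 CPM in LARP6 libraries 1, 2 and 3, against 33.6, 31.1 and 28.1 CPM in control libraries 1, 2 and 3. Its change was 0.33% (95% interval -7.35% to 8.64%, edgeR adjusted p = 0.977). SSB, on chromosome 2 (169791933 to 169812064, plus strand), was at 94.9, 93.3 and 95.5 CPM in LARP6 libraries 1, 2 and 3, against 106, 94.7 and 85.1 CPM in control libraries 1, 2 and 3. Its change was -0.65% (95% interval -11.5% to 11.5%, edgeR adjusted p = 0.965). For both genes control library 1 was the highest of the 6 libraries and control library 3 the lowest. SSB varied by 1.16% between LARP6 libraries and by 10.98% between control libraries (coefficient of variation of CPM). Among 3369 genes within 2-fold of its control level, those spreads stood at the 12.1 and the 99.6 percentile. Leaving out each library in turn moved the log2 fold change of SSB between -0.08 and 0.08, with no call.

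**Figure D2:**
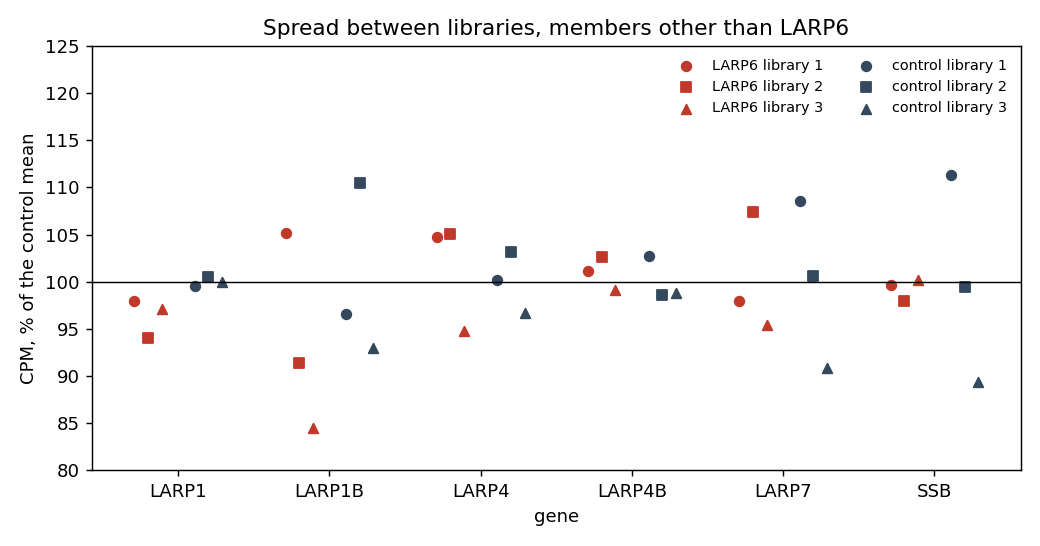
CPM of the 6 members other than LARP6 in each library, as percent of the gene's control mean (line at 100), LARP6 libraries left of control libraries. SSB libraries lie together in the LARP6 group (93.3 to 95.5 CPM) and apart in the control group (85.1 to 106 CPM), and the LARP1 groups do not overlap.

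**Figure D3:**
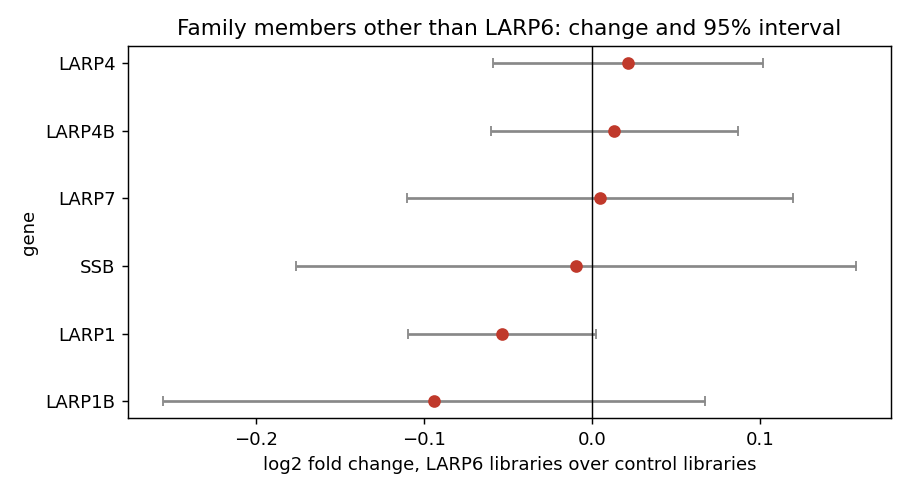
Log2 fold change (LARP6 libraries over control libraries) of the 6 other members from edgeR, with bars for the 95% interval. Every interval includes 0, and that of LARP1, from -0.11 to 0.00, lies almost wholly below it.

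Genes that overlap or adjoin the members in the annotation were read beside them, since the sources used here do not say how the counting treated strand. Of 21 such genes in the count table, 11 had enough reads to be tested by edgeR. Of these, 0 were called by edgeR or limma-voom, or had an unadjusted edgeR p below 0.05. DESeq2 also called 0, but it gave no adjusted p to LRRC49, HAND1, FAXDC2, ABHD18, ZGRF1 and UBR3, and so could not call them. LRRC49 overlaps LARP6 on the other strand, and it had 161 reads over the LARP6 libraries and 156 over the control libraries. METTL5, a ribosomal RNA methyltransferase gene that overlaps SSB on the other strand, was at 70.9 CPM in LARP6 libraries and 72.7 CPM in control libraries (log2 fold change -0.04 ± 0.04, SE, edgeR adjusted p = 0.726). ZGRF1, a helicase gene that overlaps LARP7 on the other strand, was at 4.41 CPM in LARP6 libraries and 3.96 CPM in control libraries (log2 fold change 0.16 ± 0.14, SE, edgeR adjusted p = 0.598). The pseudogene LARP1P1 had 2 reads over the LARP6 libraries and 0 over the control libraries, too few to bear on LARP1.

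The mRNAs that LARP1 is known for begin with a C followed by a run of pyrimidines, so the starts of 4 such mRNAs are shown with those of LARP6 and SSB. They are the first 20 bases from RefSeq transcript starts (GRCh38.p14), 5′ to 3′, with capitals for an opening C and the unbroken run of C and T after it, where at least 4 follow. EIF3F starts at chr11:7987337-7987356 (plus strand), EEF2 at chr19:3985444-3985463 (minus), RACK1 at chr5:181243887-181243906 (minus) and EEF1A1 at chr6:73521013-73521032 (minus). The first of the 2 LARP6 starts is at chr15:70854138-70854157 (minus), and the second SSB start is at chr2:169799302-169799321 (plus).
EIF3F: CTTCTTTCTCgacaagatgg
EEF2: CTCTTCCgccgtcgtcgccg
RACK1: CTCTCTTTCactgcaaggcg
EEF1A1: CTTTTTCgcaacgggtttgc
LARP6: agtcgctgccgaccggctgg
SSB: CCTCCaccgccttctagtct
Such a run opens 4.07% of all 35116 transcript starts in the RefSeq table, read on the transcript's strand only. It opened 8 of 11 starts of the TOP genes (72.7%) and 1 of 16 starts of the family (6.25%). By gene, it was found for 8 of the 10 TOP genes with a listed start, all but EEF1G and VIM. It was found for 1 of the 7 family members, SSB, at its second start and with 5 bases, the shortest run counted.

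Of the TOP mRNAs other than ribosomal proteins, 4 of 16 fell, 1 rose and 11 were not called, with a median log2 fold change of -0.04 against 0.00 over all genes tested. At an unadjusted p below 0.05, 1 was higher and 7 lower, and DESeq2 and limma-voom each called 1 higher and 4 lower. Over all genes DESeq2 called 164 higher and 410 lower, and limma-voom called 328 higher and 514 lower. EIF3F, a subunit of the translation initiation factor eIF3, was at 272, 277 and 287 CPM in LARP6 libraries 1, 2 and 3, against 301, 305 and 306 CPM in control libraries 1, 2 and 3. The groups did not overlap, as was so in this direction for 11.7% of genes tested. The change was -8.28% (log2 fold change -0.12 ± 0.03, SE, edgeR adjusted p = 0.00108). EEF2, the translocation factor of the ribosome, fell by 5.60% (edgeR adjusted p = 0.0247), EEF1G, an elongation factor subunit, fell by 5.23% (adjusted p = 0.0400) and the ribosome-bound scaffold RACK1 fell by 5.12% (adjusted p = 0.0458). RACK1 and EEF1A1 were chosen after their values were seen. The intermediate filament gene VIM rose by 6.15% (edgeR adjusted p = 0.0166). EEF1A1, whose start carries the run shown above, changed by less than 1% and was not called (log2 fold change -0.01, edgeR adjusted p = 0.896). The lower members numbered 1, EIF3F, if control library 2, LARP6 library 1 or LARP6 library 2 was left out, 2 if control library 3 was (EIF3F and EEF2), and 1 under scaling to total counts alone (EIF3F). VIM lost its call if LARP6 library 1, LARP6 library 2, control library 1 or control library 2 was left out.

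Among 12 genes of mTORC1, which controls LARP1, and of cap binding, 3 fell, 0 rose and 9 were not called. At an unadjusted p below 0.05, 1 was higher and 4 lower, and DESeq2 and limma-voom each called 0 higher and 3 lower. The median log2 fold change was -0.01, and 0.01 with library size only, against 0.00 and 0.03 over all genes tested. EIF4EBP1, an inhibitor of the cap-binding protein, was at 98.7, 103 and 97.0 CPM in LARP6 libraries 1, 2 and 3, against 114, 112 and 107 CPM in control libraries 1, 2 and 3. Its groups did not overlap, as was so in this direction for 11.7% of genes tested, and it fell by 10.2% (edgeR adjusted p = 0.00132). The mTORC1 subunit MLST8 fell by 11.2% (edgeR adjusted p = 0.00209) and AKT1S1, an mTORC1 inhibitor, fell by 8.35% (adjusted p = 0.00481). The genes of the kinase MTOR itself (log2 fold change -0.01, edgeR adjusted p = 0.932) and its partner RPTOR (0.05, adjusted p = 0.646), both chosen after their values were seen, were not called. Without LARP6 library 2 the lower members numbered 1, EIF4EBP1, and without control library 1 AKT1S1 also lost its call.

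Around LARP7, 3 of 17 genes of the 7SK particle, P-TEFb and its elongation partners rose, 0 fell and 14 were not called. At an unadjusted p below 0.05, 4 were higher and 2 lower, while DESeq2 and limma-voom called 0 in either direction. DESeq2 gave CCNT2 no adjusted p, and so could not call that gene. The median log2 fold change was -0.01, and 0.01 with library size only, against 0.00 and 0.03 over all genes tested. The cyclin genes of P-TEFb rose, CCNT2 by 19.3% (edgeR adjusted p = 0.0383) and CCNT1 by 13.8% (adjusted p = 0.04998), as did ELL2, an elongation factor, by 9.44% (adjusted p = 0.0454). CCNT1 was at 27.0, 26.5 and 26.6 CPM in LARP6 libraries 1, 2 and 3, against 23.0, 24.2 and 23.1 CPM in control libraries 1, 2 and 3. Its groups did not overlap, as was so in this direction for 10.6% of genes tested. CCNT2 was at 17.8, 19.4 and 14.8 CPM in LARP6 libraries 1, 2 and 3, against 14.4, 15.8 and 13.3 CPM in control libraries 1, 2 and 3, and its groups overlapped. The kinase gene CDK9 (log2 fold change -0.05, edgeR adjusted p = 0.594), the 7SK-capping enzyme gene MEPCE (-0.08, adjusted p = 0.250) and the P-TEFb inhibitor gene HEXIM1 (0.02, adjusted p = 0.852), chosen after their values were seen, were not called. The 3 calls were close to the threshold, with 0 called if LARP6 library 1, LARP6 library 2, control library 1 or control library 3 was left out.

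Genes that work with LARP4, LARP4B and SSB were nearly all not called. Of 19 genes of poly(A) tail binding and deadenylation, 0 were called by edgeR, DESeq2 or limma-voom, and 2 were lower at an unadjusted p below 0.05. The median log2 fold change was -0.01, and 0.02 with library size only, against 0.00 and 0.03 over all genes tested. The cytoplasmic poly(A)-binding protein genes PABPC1 and PABPC4 were the most abundant. PABPC1 was at 694, 700 and 679 CPM in LARP6 libraries 1, 2 and 3, against 734, 721 and 704 CPM in control libraries 1, 2 and 3 (log2 fold change -0.06 ± 0.03, SE, edgeR adjusted p = 0.176). Its groups did not overlap, as was so for 22.3% of genes tested in either direction. PABPC4 changed by -0.01 ± 0.03 (log2, SE, edgeR adjusted p = 0.894), and its groups overlapped. Without LARP6 library 1, 1 member was called lower, BTG2, which was at 0.86 CPM in control libraries and was named after its values were seen.

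Of 31 tested genes of RNA polymerase III transcription and the processing of its products, the pathway SSB serves, 1 fell, 0 rose and 30 were not called. At an unadjusted p below 0.05, 0 were higher and 4 lower, DESeq2 and limma-voom each called the same numbers as edgeR, and the median log2 fold change was 0.00. The gene that fell was USB1, an exonuclease that trims the U6 RNA end after SSB has bound it. It was at 84.0, 88.4 and 86.9 CPM in LARP6 libraries 1, 2 and 3, against 95.6, 96.9 and 99.7 CPM in control libraries 1, 2 and 3. The groups did not overlap, as was so in this direction for 11.7% of genes tested. The change was -11.3% (log2 fold change -0.17 ± 0.04, SE, edgeR adjusted p = 0.000479). It was called without each library in turn. RO60, whose protein binds Y RNAs together with SSB, changed by 0.07 (log2, edgeR adjusted p = 0.573) and was chosen after its value was seen.

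Set beside the 6.03% of all genes tested that were called, the share called was 31.25% in the TOP list, 25.0% in the mTORC1 list, 17.6% in the 7SK and P-TEFb list, 3.23% in the RNA polymerase III list and 0% in the poly(A) list. These shares rest on 12 to 31 genes a list and were not tested. The lists were not matched to all genes in level, and the bearing of level on these shares was not tested. TOP members had control means from 209 CPM (EIF4B) to 9025 CPM (EEF1A1). The called 7SK and P-TEFb genes had control means of 14.5 CPM (CCNT2), 23.4 CPM (CCNT1) and 59.9 CPM (ELL2). The SE of the log2 fold change was 0.02 for RACK1 and 0.35 for BTG2. For the counts at an unadjusted p below 0.05, no share over all genes is given, so nothing is read from them about a list.

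**Figure D4:**
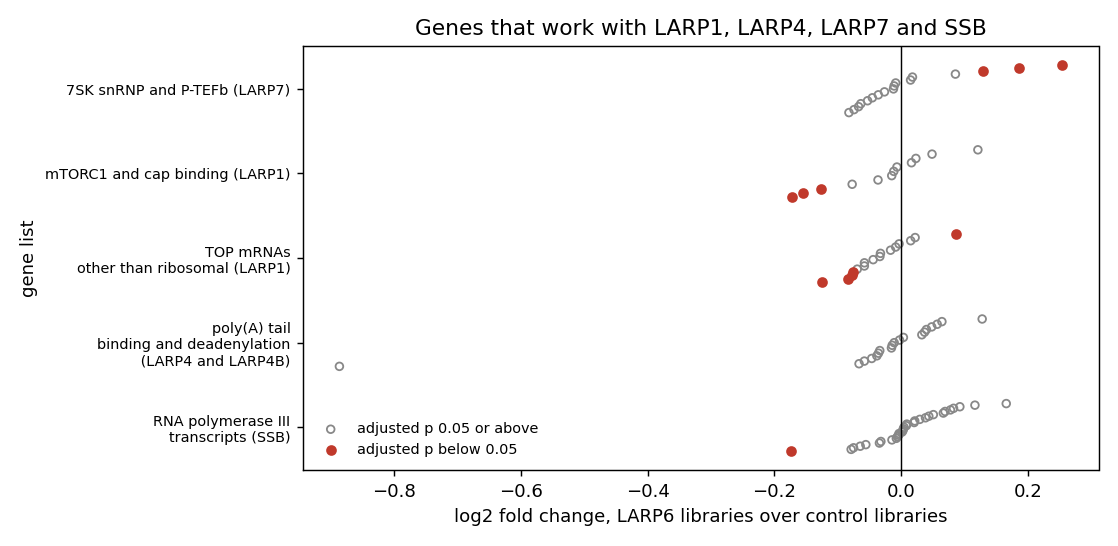
Log2 fold change (LARP6 libraries over control libraries) of each tested gene in the 5 lists, with a row of points for each list and filled points for genes called by edgeR. Called genes lie below 0 in the mTORC1, TOP and RNA polymerase III lists, except VIM, and above 0 in the 7SK and P-TEFb list. The open point at -0.89 is BTG2, with 0.86 CPM in control libraries.

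The genes whose levels followed LARP6 most closely were sought among 10575 other protein-coding genes with a mean of at least 5 CPM, by Pearson's r of log2 CPM over the 6 libraries. Since LARP6 falls into separate levels in the 2 groups, this r mostly measures how tightly a gene's libraries lie around its group means, and it is given as a description. FBXO17 (r = 0.995), HELZ (r = 0.994) and CLCN5 (r = 0.992) were the most alike, with small changes that edgeR did not call. FBXO17 was at 10.8, 10.6 and 10.8 CPM in LARP6 libraries 1, 2 and 3, against 9.65, 9.63 and 9.63 CPM in control libraries 1, 2 and 3 (edgeR adjusted p = 0.374). HELZ, a helicase gene, changed by 12.6% (edgeR adjusted p = 0.191) and the chloride channel gene CLCN5 by 14.1% (adjusted p = 0.198). At the opposite end were LCN2 (r = -0.996), RUSF1 (r = -0.995) and ZC3H12A (r = -0.994). The lipocalin gene LCN2 was at 13.6, 12.1 and 13.4 CPM in LARP6 libraries 1, 2 and 3, against 36.1, 40.7 and 35.7 CPM in control libraries 1, 2 and 3. ZC3H12A, an RNase gene, fell by 37.9% (edgeR adjusted p = 1.63e-22). RUSF1 fell by 8.34% (edgeR adjusted p = 0.0489), a call that was lost without any 1 of the 6 libraries.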

How the data were processed

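RNA was sequenced as paired reads of 150 bases from a stranded mRNA library, per the labels' protocols. The authors deposited raw read counts per gene and FPKM per gene. The submitters' processing notes name HISAT2, DESeq2 and GRCh38. The sources used here do not state the counting tool, how it treated strand, or the annotation release.

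Counts were fitted over all genes with edgeR 4.0.16 in R 4.3.3 (expression filter, TMM, robust quasi-likelihood test, no covariate), leaving 16226 genes tested, and called at an adjusted p below 0.05. CPM use TMM-scaled sizes, SE is the fold change over the root of F, and 95% intervals use its degrees of freedom. Log2 CPM used a prior count of 2. The 7 members and the 5 lists were chosen with earlier results of these data known. Named genes are the members, up to 4 called genes a list by smallest p (or the 2 most abundant where none was called), overlapping or adjoining genes, and the 3 highest and 3 lowest r with LARP6; other genes are marked in the text as chosen after their values were seen. Coordinates come from GENCODE release 29.

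The alternatives were other scalings and low-count filters, LARP6 left out of the counts, DESeq2 1.42.0, limma-voom (limma 3.58.1), limma-trend on log2 FPKM (pseudocount 1 or 0.1), the replicate number as a block, and each library left out. Scripts were tested on simulated counts.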

Additional observations from a re-analysis of the deposited data

How the results depend on the processing

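The LARP6 log2 fold change lay between 5.45 and 5.66 under all 16 alternatives that could give it, and past the threshold in each; dropping any 1 library gave 5.59 to 5.66. The 6 other members had 0 calls under all 17 alternatives, with the lowest adjusted p at 0.165 (LARP1, replicate block). DESeq2 gave no adjusted p to LARP1B, so that alternative could not have called it. The genes called over all numbered 979, and 574 with DESeq2, 4 with limma on log2(FPKM + 1), 19 on log2(FPKM + 0.1), and 456 to 1040 with a library left out. The FPKM fits took in every gene with a value, without a filter on low values, and called 0 members of any of the 5 lists. The 7SK and P-TEFb members that rose were 3, and 1 without a low-count filter, 0 with DESeq2 or limma-voom, and 0 to 2 with a library left out. Of these 3, CCNT2 had no adjusted p from DESeq2. The mTORC1 members that fell were 3, and 1 to 3 with a library left out. The TOP members that fell were 4, and 1 with library size only and 1 to 3 with a library left out, while those that rose were 1, and 0 to 1 with a library left out. The poly(A) members that fell were 0, and 0 to 1 with a library left out. The RNA polymerase III members that fell were 1 with each library left out. The cause of these differences was not tested.

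Whether the replicate numbers pair the libraries is not given, and the main fit did not pair them. Deviations from the group means of same-numbered libraries correlated at 0.076, 0.042 and 0.208 across 11072 genes. Those of differently numbered libraries correlated at -0.131 to 0.070. With the replicate block the LARP6 log2 fold change was 5.62 and 1345 genes were called, with 1 poly(A) member (PABPC1, adjusted p = 0.0410) and 2 RNA polymerase III members (USB1 and MAF1) lower. Of the 6 libraries, 4 correlated best with their own number. With library size only, the median log2 fold change of all genes was 0.03. Depth limits LARP1B most, whose counts of 398 to 484 reads are the fewest in the family.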
